A study of Mus musculus with 2 samples.

Results

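Cxcl9-positive macrophages of the inflamed mouse temporomandibular joint (TMJ) were taken from 2 single-cell RNA sequencing libraries by a rule on raw counts of unique molecular identifiers (UMIs, which count captured RNA molecules). A barcode was a member when it passed the cell filter (at least 500 genes and under 10% mitochondrial UMIs), held at least 3 UMIs of the complement genes C1qa, C1qb and C1qc together, at least 1 of Csf1r and at least 1 of Cxcl9, and held no more than 1 UMI of Folr2 and fewer than 10 of Mmp12. The rule found 342 of 10109 kept cells, 104 of 4352 in the WT library and 238 of 5757 in the mutant library, out of 1046 macrophages defined by the C1q and Csf1r conditions alone. Macrophages that met the whole rule except that they held no Cxcl9 UMI (165 in WT and 217 in the mutant) served as the nearest comparison and are called Cxcl9-undetected macrophages here. The 2 further macrophage groups were Mmp12-high cells with 10 or more Mmp12 UMIs (137 and 108) and Folr2-positive cells with 2 or more Folr2 UMIs and fewer than 10 of Mmp12 (32 and 45).

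The study asked how reduced lymphatic function alters arthritis of the TMJ. Both libraries came from the TMJ of mice aged 8 to 10 weeks, which the labels give as C57BL/6. They had received complete Freund's adjuvant (CFA), an oil emulsion with killed mycobacteria that provokes inflammation, by injection into the joint. Whether the 2 libraries shared the same strain background was not tested. The mice are described as female. One library came from WT mice and the other from Prox1 mutant mice, which the study's methods give as Prox1+/- heterozygotes with no Cre driver named, so the change was not limited to lymphatic endothelium by the labels. There was 1 library per genotype and none without CFA, and how many mice each library pooled is not given in the sources used here, so genotype and library cannot be told apart and no p-value was computed. Intervals given below are 95% intervals for counting error only.

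Interferons are secreted signals that switch on large sets of genes in macrophages. Interferon gamma, made mainly by T cells and natural killer (NK) cells, acts on short promoter sites called GAS elements, and it induces the chemokines CXCL9 and CXCL10, which attract cells carrying the receptor CXCR3, together with guanylate-binding proteins (GBPs), immunity-related GTPases and the MHC class II genes. Type I interferons act mainly on ISRE elements and induce antiviral genes such as Isg15, Rsad2 and the Ifit genes, many of which also respond to interferon gamma.

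Promoter sequences of interferon-induced genes that the results below turn on are shown first, since such genes were compared as lists. Each run holds the 250 bases before the annotated start on the strand of the gene (RefSeq, GRCm38.p6), and capitals mark every match to the GAS letters TTCNNNGAA (the same on both strands) or to the ISRE letters GAAA, any 2 bases, GAAA, on either strand. The windows are Cxcl9 at chr5:92328080-92328329 and Cxcl10 at chr5:92348890-92349139, both on the minus strand, Gbp2 at chr3:142620413-142620662 and Gbp5 at chr3:142496684-142496933 on the plus strand, and Isg15 at chr4:156200819-156201068 on the minus strand. Gene positions given further below come from another annotation (GENCODE), in which Gbp2 and Gbp5 start before the ends of these windows.
Cxcl9: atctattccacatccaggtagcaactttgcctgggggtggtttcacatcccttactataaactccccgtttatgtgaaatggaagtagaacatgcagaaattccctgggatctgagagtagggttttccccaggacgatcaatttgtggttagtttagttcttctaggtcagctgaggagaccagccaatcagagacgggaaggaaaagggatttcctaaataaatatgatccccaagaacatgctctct
Cxcl10: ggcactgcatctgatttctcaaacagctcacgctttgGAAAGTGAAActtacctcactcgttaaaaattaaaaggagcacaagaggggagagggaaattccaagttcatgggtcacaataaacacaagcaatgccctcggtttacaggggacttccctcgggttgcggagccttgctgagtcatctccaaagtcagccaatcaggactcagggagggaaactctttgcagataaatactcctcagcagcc
Gbp2: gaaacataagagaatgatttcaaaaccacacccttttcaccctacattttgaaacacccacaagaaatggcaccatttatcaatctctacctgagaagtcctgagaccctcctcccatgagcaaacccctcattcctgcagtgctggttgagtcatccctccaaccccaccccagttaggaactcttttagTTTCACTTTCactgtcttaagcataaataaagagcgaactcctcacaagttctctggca
Gbp5: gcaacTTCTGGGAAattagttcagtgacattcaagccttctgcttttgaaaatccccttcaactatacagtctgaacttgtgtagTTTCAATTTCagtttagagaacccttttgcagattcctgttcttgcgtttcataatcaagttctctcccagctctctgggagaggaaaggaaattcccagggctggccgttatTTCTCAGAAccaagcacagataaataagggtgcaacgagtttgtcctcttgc
Isg15: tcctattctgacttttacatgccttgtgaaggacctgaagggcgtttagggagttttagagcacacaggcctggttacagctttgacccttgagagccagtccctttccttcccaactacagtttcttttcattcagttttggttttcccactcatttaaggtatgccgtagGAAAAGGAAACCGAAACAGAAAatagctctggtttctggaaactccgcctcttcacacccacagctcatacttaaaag

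The window of Cxcl10 held 1 ISRE match, that of Gbp2 held 1, that of Gbp5 held 1 ISRE and 2 GAS matches, and that of Isg15 held 3 ISRE matches that overlap each other, whereas neither string of letters occurs in the window of Cxcl9. The counts that follow used windows that also took in a short stretch after the annotated start, longer than the runs shown. Among 32851 such windows, 8.30% held a GAS match and 3.44% an ISRE match. Both occurred in 149 windows, and in 24 of these the matches overlapped. Of the 20 GTPases listed as induced by interferon gamma, 11 had a promoter in the table, with 12 windows, of which 6 held a GAS match and 10 an ISRE match. Of the 43 genes listed as induced by type I interferon, 32 had 38 windows, of which 4 held a GAS match and 24 an ISRE match. The 8 windows of MHC class II genes held 1 GAS match and no ISRE match. A match describes these letters only and is not evidence of a bound factor. Likewise, the lack of an exact match, as for Cxcl9, is not evidence that a window lacks an interferon element.

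Of 48366846 UMIs in kept WT cells, 2032818 belonged to Cxcl9-positive macrophages, and of 54330221 in kept mutant cells 4368579 did. A Cxcl9-positive macrophage had a median of 15126 UMIs in WT (lowest 2359, highest 52355) and 13802.5 in the mutant (837 to 99248), against 13725 and 7514 UMIs in the Cxcl9-undetected macrophages. Cells with more UMIs are more likely to show any given gene, so the Cxcl9-undetected cells of the mutant include shallow ones, and shares of cells are also given with every cell reduced by random draws to 2000 UMIs (thinned). Prox1 itself was at 11.6 CPM (10.7-12.6; CPM is the UMI count of a gene scaled to a total of 1000000 UMIs) over all kept WT cells and at 5.80 (5.18-6.47) over the mutant cells, and the Cxcl9-positive macrophages held 1 and 0 Prox1 UMIs. These levels are over all cell types together. Outside macrophages, 1 WT cell held 152 of 555 Prox1 UMIs, and 3.58% of WT and 1.81% of mutant cells held the gene. No barcode was a member in both libraries, although the libraries had 4 kept barcodes in common.

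The mutant library stood apart in the RNA of red blood cells and neutrophils that its macrophage droplets contained. The 8 erythroid marker genes reached a sum of 3882 CPM in Cxcl9-positive macrophages of WT against 25502 in those of the mutant, with the haemoglobin gene Hbb-bs as the most abundant in each, and none of the 8 was at 0. The 10 neutrophil markers summed to 17479 and 26989 CPM, with S100a9 leading and none at 0. Markers of stromal cells (mesenchymal cells, endothelium, smooth muscle and pericytes) also occurred: 26 of 104 Cxcl9-positive macrophages in WT (25%) and 125 of 238 in the mutant (52.5%) held at least 3 such UMIs, against 21.8% and 47.9% of the Cxcl9-undetected macrophages. The mesenchymal list summed to 544 CPM in Cxcl9-positive and 176 in Cxcl9-undetected macrophages of WT, and to 722 and 326 in the mutant, led by Col3a1 in Cxcl9-positive cells. A doublet caller placed 12.5% of the WT and 13.03% of the mutant Cxcl9-positive macrophages among the highest scores, against 4.24% and 6.91% of the Cxcl9-undetected ones. Without those scores the mesenchymal sums in Cxcl9-positive and Cxcl9-undetected macrophages were 71.6 and 67.0 CPM in WT, but 924 and 368 in the mutant. What these droplets of mixed content contribute to each result was not tested beyond the values without them that are given beside the results.

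The cells matched the label of interferon-responding macrophages in part. All 12 core macrophage genes were measured, and none differed by 2-fold or more from the Cxcl9-undetected macrophages in either library. Of the markers Cxcl9, Cxcl10, Ly6i and Fcgr1, Cxcl9 entered the rule and is therefore no result. Its level was 782 CPM (744-822) in Cxcl9-positive macrophages of WT and 945 (917-975) in those of the mutant. These levels rested on a minority of cells, since the 10 cells with most Cxcl9 UMIs held 43.7% of them in WT and 38.7% in the mutant. At the threshold, 30 WT and 69 mutant cells held exactly 1 Cxcl9 UMI, while the median was 6 and 3 and the highest 135 and 267.

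Cxcl10 (chr5:92346638-92348889), a ligand of the same receptor and a neighbour of Cxcl9 on the chromosome, was at 199.7 CPM (181-220.1) in Cxcl9-positive and 60.8 (52.2-70.4) in Cxcl9-undetected macrophages of WT. In the mutant its levels were 333 (316-350.4) and 102 (90.1-114). The log2 ratio between the groups was nearly equal in the 2 libraries, 1.72 (1.46 to 1.98) and 1.71 (1.52 to 1.90), and all 4 levels were outside each other's intervals.

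Ly6i (chr15:74979534-74983430), a surface protein of the Ly6 family carried by activated monocytes, was at 396 CPM (369-424) against 207 (191-224) in WT and at 409 (390.3-428) against 217 (199-235) in the mutant. The log2 ratios were 0.94 and 0.92. Ly6 genes are close in sequence, so reads may be shared among them and the Ly6i value is uncertain to that extent. Fcgr1 (chr3:96282909-96293969), which encodes the high-affinity IgG receptor CD64, was at 152 CPM (136-170.5) against 137 (124-151) in WT and at 133 (122-144) against 115 (103-129) in the mutant. Its log2 ratios of 0.15 and 0.20 were the smallest of the markers. The number of the 3 other markers seen in a cell varied, with 5 WT and 24 mutant cells showing none and 29 and 52 showing all of them.

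**Figure D1:**
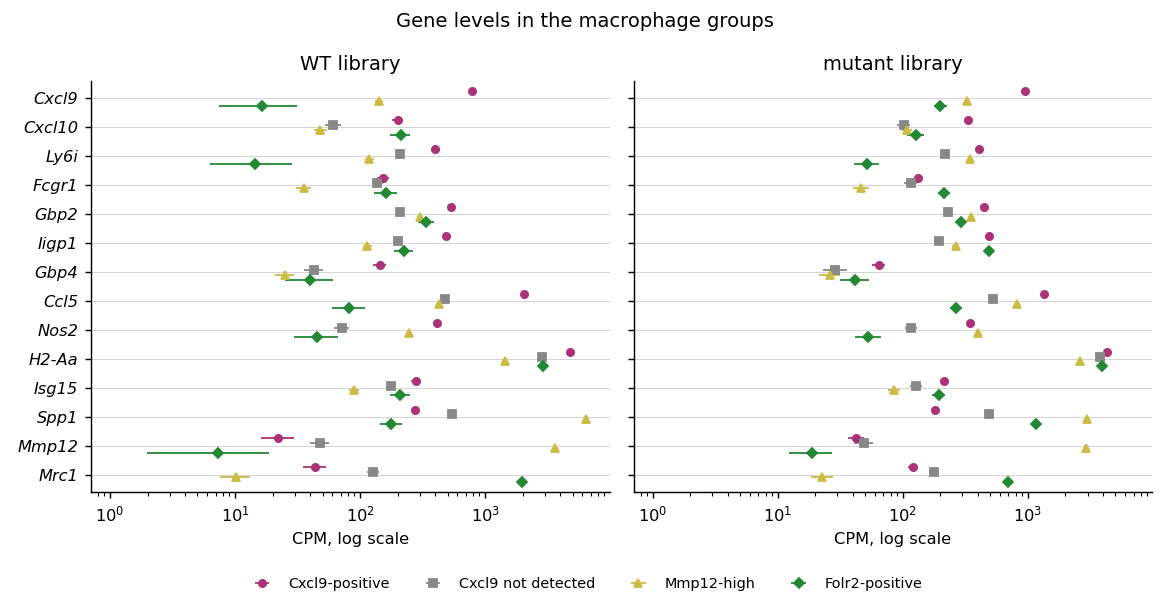
Level of 14 genes (CPM, log axis) in the 4 macrophage groups of the WT library (left) and the mutant library (right), with 95% counting intervals as horizontal lines; a group with 0 UMIs has no point. Cxcl10, Iigp1, Gbp4 and Ccl5 lie higher in the Cxcl9-positive than in the Cxcl9-undetected macrophages in both panels, for example 199.7 against 60.8 CPM of Cxcl10 in WT.

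Genes were then ranked over the whole table. A gene was counted as higher or lower when its log2 ratio passed 1 in size, among genes with at least 50 UMIs over both groups; this contrast contains the gene of the rule, so its counts describe the groups and carry no test. In WT 248 of 7826 genes were higher (3.17%) and 94 lower (1.2%) in Cxcl9-positive than in Cxcl9-undetected macrophages, and in the mutant 212 of 9103 were higher (2.33%) and 67 lower (0.736%). Of 7775 genes measured in both libraries, 48 were higher and 6 lower in both. Part of the top of that ranking consisted of genes known from connective tissue, such as Fstl1, Fbn1, Igfbp5 and Col3a1, and single cells carried much of their signal: without the cell with most of its UMIs, Col3a1 went from 211 to 18.5 CPM in WT Cxcl9-positive macrophages and Igfbp5 from 145 to 33.9 in the mutant. The WT log2 ratio of Col3a1 was -0.24 without the highest doublet scores. On thinned cells, where fewer genes were measured, 29 of 2004 genes were higher and 30 lower in WT. In the mutant 35 of 3016 were then higher and 11 lower. When all cells with 3 or more stromal UMIs were left out of both groups, 85 of 6464 genes were higher and 123 lower in WT. In the mutant 90 of 6985 were then higher and 85 lower, and 20 of 6289 genes were higher and 4 lower in both libraries. Those highest in a ranking for that setting were Cxcl9, Serpina3g, Cxcl10, Nos2, Calhm6, Gbp4, Batf2, Ccl5, Upp1 and Gbp2. The ranking did not hold every gene of the count, since Mrc1 alone among its lowest genes passed the fold in both libraries.

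The guanylate-binding proteins and immunity-related GTPases, which attack the vacuoles of intracellular microbes and are induced strongly by interferon gamma, were higher as a group. All 16 listed genes measured in WT had a log2 ratio above 0, 8 of them past 1 (against 3.17% of all genes), with a median of 0.96 against 0.06 over all genes. In the mutant all 17 measured were above 0, 5 past 1 (against 2.33% of all genes), with a median of 0.66 against 0.01. Without cells of 3 or more stromal UMIs the medians were 1.20 and 0.94. Sequences of the Gbp genes resemble each other, as do those of Tgtp1 and Tgtp2, so the split of counts among these copies is uncertain.

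Gbp2 (chr3:142620602-142638008), a guanylate-binding protein recruited to pathogen vacuoles, was at 535 CPM (504-568) in Cxcl9-positive and 208 (192-225) in Cxcl9-undetected macrophages of WT, and at 444 (425-464) and 230.1 (212-248.8) in the mutant. The log2 ratios were 1.36 in WT and 0.95 in the mutant. Gbp4 (chr5:105115767-105139586) was at 144 CPM (128-161) against 42.6 (35.4-50.8) in WT and at 64.3 (57-72.3) against 28.9 (22.9-36) in the mutant. It was thus higher in the Cxcl9-positive cells of each library, while its level in the WT Cxcl9-positive cells was above that in the mutant ones. Gbp5 (chr3:142493978-142522344), which promotes inflammasome activity, was at 185 CPM (167-205) against 68.7 (59.5-78.9) in WT and at 143 (132-155) against 97.3 (86-109.7) in the mutant. Its log2 ratio of 1.43 in WT passed the fold of 1, and the 0.56 in the mutant did not. Iigp1, an immunity-related GTPase, was at 484 CPM (454-515) against 201 (185-218) in WT and at 489.6 (469-511) against 194 (177-211) in the mutant. Irgm2, a regulator of these GTPases, had the smallest ratio of the list in WT, 32.5 CPM (25.1-41.3) against 26.1 (20.6-32.7), with overlapping intervals.

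**Figure D2:**
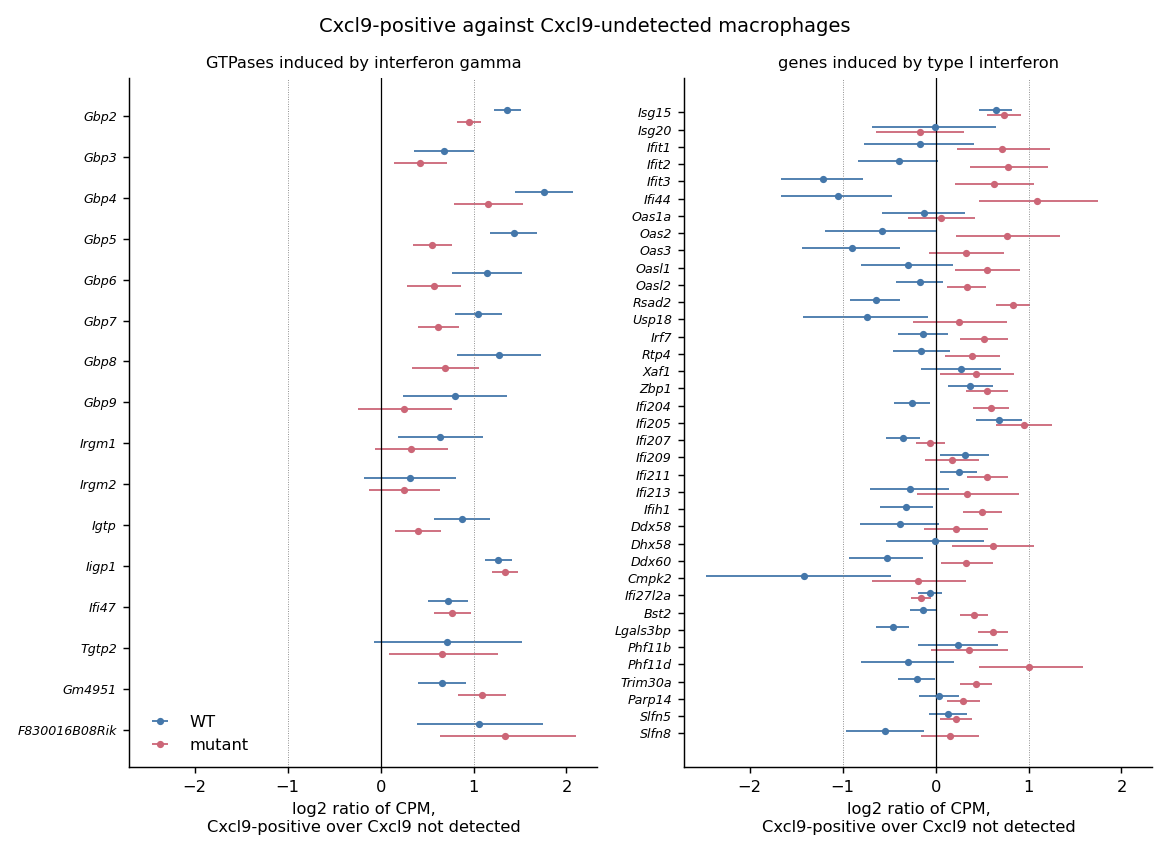
Log2 ratio of CPM in Cxcl9-positive over Cxcl9-undetected macrophages for the measured GTPases induced by interferon gamma (left) and genes induced by type I interferon (right), in WT (blue) and mutant (red), with 95% counting intervals; dotted lines mark a log2 ratio of 1 in size. The GTPase points all lie above 0, whereas the type I points lie on both sides of 0 in WT, where 9 of 37 were above it (25 of 36 among cells with 10000 to 40000 UMIs).

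The list of genes induced by type I interferon had no stable direction in WT. There 9 of 37 measured genes were above 0, none passed 1 and 3 were below -1 (against 1.2% of all genes), with a median of -0.20. Among WT cells with 10000 to 40000 UMIs, however, 25 of 36 were above 0 and none was below -1, with a median of 0.10, and on thinned cells 10 of 16 were above 0, with a median of 0.28. In the mutant 34 of 40 were above 0 and 2 passed 1 (against 2.33% of all genes), with a median of 0.40. Isg15, a ubiquitin-like modifier, was at 277 CPM (255-301) against 177 (162-193) in WT and at 213 (199-227) against 128 (115-142) in the mutant, higher in Cxcl9-positive cells of both. Rsad2, the antiviral enzyme viperin, was at 81.7 CPM (69.7-95.1) against 128 (115-141) in WT and at 215 (202-229) against 121 (108-135) in the mutant. Its ratio thus had opposite signs in the 2 libraries. Ifit3, which binds viral RNA together with its partner Ifit proteins, was at 28.5 CPM (21.7-36.9) against 66.3 (57.3-76.3) in WT and at 37.3 (31.8-43.5) against 24.1 (18.7-30.7) in the mutant, and Ifi44 likewise had a log2 ratio of -1.05 in WT and 1.09 in the mutant. In the Cxcl9-undetected macrophages this list was lower in the mutant than in WT, with 8 of 38 genes above 0 and a median log2 ratio of -0.33. The Ifi200 and Oas1 genes of the list have close copies and their values are uncertain.

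Interferon genes themselves were scarcely seen. Ifng had 3 UMIs in the Cxcl9-positive macrophages of WT and 21 in those of the mutant (1.48 and 4.81 CPM), whereas cells with T and NK markers held 196 of the Ifng UMIs of WT (76.0%) and 160 of those of the mutant (55.0%). Ifnb1 had 0 UMIs in Cxcl9-positive macrophages of both libraries, which, with 3 UMIs taken as the limit that a count of 0 allows, leaves up to 1.48 CPM in WT and 0.687 in the mutant. The receptor Ifngr1 was at 183 CPM (165-203) against 169 (154-185) in WT and at 169 in both groups of the mutant. Over the 13 receptor and signalling genes the median ratio was 0.08 in WT and 0.06 in the mutant, close to that of all genes. Socs1, a feedback inhibitor of this pathway, was the exception, at 43.8 CPM (35.2-53.9) against 24.7 (19.3-31.1) in WT and 48.5 (42.2-55.5) against 14.6 (10.5-19.9) in the mutant.

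MHC class II genes, which present antigen to helper T cells, had a larger median ratio in WT than in the mutant. All 7 MHC class II genes measured in WT were above 0 with a median of 0.75, and 8 of 9 were above 0 in the mutant with a median of 0.17; none passed 1 in either. H2-Aa, the alpha chain of an MHC class II molecule, was at 4797 CPM (4703-4893) against 2848 (2787-2909.6) in WT and at 4291 (4230.1-4353) against 3774 (3701-3848) in the mutant. In the mutant the Cxcl9-undetected cells were higher and the Cxcl9-positive cells lower than their WT counterparts. For the MHC class I and proteasome genes 17 of 19 were above 0 in WT and 18 of 19 in the mutant, with medians of 0.25 and 0.23 and none past 1. The immunoproteasome subunit Psmb8 was at 464 CPM (435-495) against 339.7 (319-362) in WT and at 323 (306-339.8) against 277 (258-297) in the mutant.

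Several inflammatory effector genes were among the highest without stromal UMIs. Nos2, the inducible nitric oxide synthase, was at 408 CPM (381-437) against 71.4 (62.1-81.8) in WT and at 342 (325-359.8) against 117 (105-131) in the mutant, with log2 ratios of 2.51 and 1.55. It was seen in 44.2% and 42.4% of the Cxcl9-positive cells and in 22.4% and 25.3% of the Cxcl9-undetected ones. Ccl5, a chemokine for T cells and monocytes, was at 2054 CPM (1992-2118) against 477 (452-503) in WT and at 1344 (1310.0-1379) against 529 (502-557) in the mutant. Serpina3g, an intracellular protease inhibitor, was at 74.8 CPM (63.4-87.6) against 14.4 (10.4-19.5) in WT and at 62 (54.9-69.9) against 9.15 (5.92-13.5) in the mutant. Nos2, Ccl5 and Serpina3g each passed the fold in both libraries, and they also did so without cells of 3 or more stromal UMIs. Cd40, a costimulatory receptor, passed it in WT only, at 81.7 CPM (69.7-95.1) against 21.6 (16.6-27.7), while the mutant values were 57.9 (51-65.5) and 39.5 (32.4-47.7). Of the 18 listed inflammatory cytokine and effector genes, 5 of 16 measured were past 1 in WT and 2 of 15 in the mutant (against 3.17% and 2.33% of all genes), and none was below -1. Il6 was among them, yet 1 cell held much of it: without the cell with most of its UMIs the mutant Cxcl9-positive level went from 25.2 to 9.53 CPM.

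Several genes of lipid-handling macrophages were lower, more of them in WT than in the mutant. As a sum, which Apoe dominated, that list was at 10481 CPM in Cxcl9-positive against 17164 in Cxcl9-undetected macrophages of WT, but at 13412 against 11194 in the mutant. Of 12 genes of the lipid-associated list, 4 were below -1 in WT and 2 in the mutant (against 1.2% and 0.736% of all genes), and none was above 1, with medians of -0.81 and -0.18. Spp1, the secreted matrix protein osteopontin, was at 276 CPM (254-300.3) in Cxcl9-positive and 546 (519.6-574) in Cxcl9-undetected macrophages of WT, and at 181 (168-194) and 485 (459-512) in the mutant. Lpl, lipoprotein lipase, was at 61 CPM (50.7-72.7) against 135 (122-149) in WT and at 105 (95.2-115) against 254 (236-274) in the mutant. Both genes were lower in the Cxcl9-positive cells of each library, with intervals that did not overlap. Without cells of 3 or more stromal UMIs the mutant log2 ratios were -0.90 for Spp1 and -0.73 for Lpl, short of the fold, while those of WT were -1.29 and -1.84. Gpnmb, a glycoprotein of lipid-laden macrophages, was at 67.9 CPM (57-80.2) against 385 (363-409) in WT, but at 309 (293-326) against 265 (246-285) in the mutant. The list of tissue-resident macrophages summed to 775 CPM (737-814) against 1062 (1025-1099.8) in WT and to 1381 (1347-1417) against 1398 (1354-1443) in the mutant, where the intervals overlapped. Mrc1, the mannose receptor of resident macrophages, was at 43.3 CPM (34.7-53.3) against 127 (114-141) in WT and at 121 (111-132) against 176 (161-193) in the mutant. Monocyte genes showed no common direction, with 8 of 13 above 0 in WT and 6 of 14 in the mutant. Ly6c2, a marker of blood monocytes, was at 398 CPM (371-426) against 304 (284-324) in WT and at 451 (431-471) against 427 (402-452) in the mutant, where the intervals overlapped. After thinning 43.3% of Cxcl9-positive against 25.3% of Cxcl9-undetected cells held it in WT, and 37.9% against 24.2% in the mutant. Ccr2, a receptor for monocyte entry into tissue, was at 120.0 CPM (105-136) against 115 (103-128) in WT and at 105 (95.9-115) against 119 (107-133) in the mutant, and after thinning was held by 17.3% against 12.3% and 13.2% against 10.1% of cells.

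Among the Cxcl9-positive macrophages, cells with more Cxcl9 UMIs had a higher sum of the GTPases induced by interferon gamma. The summed GTPase list was at 1069 CPM in cells with no Cxcl9 UMI, 1333 with 1, 1665 with 2 to 4, 2552 with 5 to 19 and 3618 with 20 or more in WT. The mutant values in the same order were 1130, 1429, 1634, 1975 and 2737. Each step was upward in both libraries, and between cells with 1 and with 20 or more Cxcl9 UMIs the log2 ratio in WT was 1.44 (1.33 to 1.55) and that in the mutant 0.94 (0.84 to 1.03). Other measures moved across the same bins: from 1 to 20 or more Cxcl9 UMIs in the mutant, the summed erythroid markers were at 62888, 48758, 13410 and 1726 CPM, and the median depth was 7099 UMIs in the lowest bin and 20816 in the highest. In WT the erythroid sum was at 8186, 229.9, 301 and 3796 CPM and the depth at 18047 and 16489 UMIs. Their part in the gradient was not tested. In the GTPase sum, cells with 1 Cxcl9 UMI lay closer to the Cxcl9-undetected cells than to the highest bin. Cxcl10 was at 37.963 CPM (24.6-56.0) in WT cells with 1 Cxcl9 UMI and at 453 (401-510.2) in those with 20 or more, and at 51.1 (36.7-69.3) and 615 (574-658) in the mutant. The type I list showed a weaker gradient, from 2808 to 4119 CPM in WT and from 3275 to 4610 in the mutant, and the WT cells without Cxcl9 (3812 CPM) were above those with 1 UMI. MHC class II genes peaked at 30122 CPM in the WT cells with 5 to 19 UMIs and showed no steady order in the mutant. Across single cells, the Spearman correlation of Cxcl9 with the GTPase list (each as a share of the cell's UMIs) was 0.49 over 104 WT and 0.34 over 238 mutant cells. That of Cxcl9 with the cell's total UMIs was -0.39 and -0.19; cells of 1 library are not replicates and the shares have the same denominator, so these are descriptions.

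**Figure D3:**
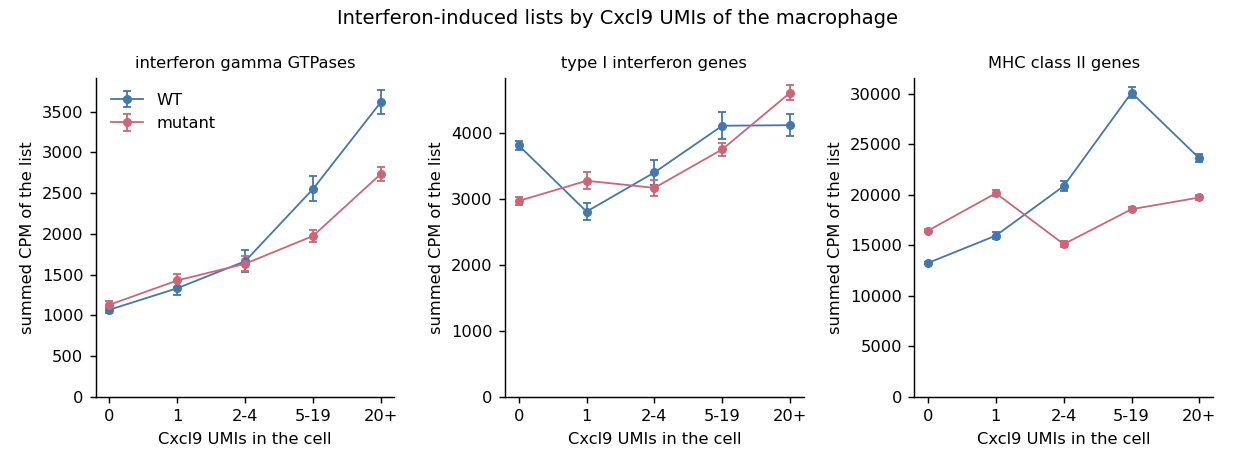
Summed CPM of 3 interferon-induced gene lists in macrophages grouped by their Cxcl9 UMIs (0 to 20 or more), in WT (blue) and mutant (red), with 95% counting intervals. The GTPase list rises at each step in both libraries, from 1069 to 3618 CPM in WT and from 1130 to 2737 in the mutant, while the type I and MHC class II lists do not rise at each step.

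The Mmp12-high macrophages, with median depths of 35801 and 34968 UMIs, differed from the Cxcl9-positive cells in most of these groups. In WT 1043 of 8438 genes were higher in the Cxcl9-positive cells (12.4%) and 364 lower (4.31%), and in the mutant 664 of 9398 were higher (7.07%) and 291 lower (3.1%). The median gene was shifted by 0.29 in WT and 0.12 in the mutant; with ratios centred on that median, 627 genes were higher and 580 lower in WT. Before any centring, the GTPases had medians of 1.62 and 0.89 and MHC class II genes of 1.75 and 0.71, all above that shift, and every measured gene of both lists was above 0. Spp1 was at 6356 CPM (6289-6424) in WT Mmp12-high cells and at 2962 (2911-3014) in the mutant ones, against the 276 and 181 CPM given above. Mmp12 itself was used to define the groups. Cxcl9 was not absent from Mmp12-high cells, at 141 CPM (131-152) in WT and 325 (308-342) in the mutant, and 36 WT and 56 mutant macrophages with Cxcl9 were left out of the members by their Mmp12 alone, 4 and 13 of them with 10 to 19 UMIs.

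The Folr2-positive macrophages, a resident type, differed from the Cxcl9-positive cells in both directions. In WT 442 of 6270 genes were higher in the Cxcl9-positive cells (7.05%) and 394 lower (6.28%), and in the mutant 420 of 8629 were higher (4.87%) and 319 lower (3.7%). Of the resident list, 11 of 12 measured genes were below -1 in WT and 10 of 11 in the mutant, Folr2 among them by definition. Mrc1 was at 1973 CPM (1858-2094) in Folr2-positive cells of WT and at 697 (654-742) in those of the mutant. The interferon genes did not separate these groups in 1 direction: the GTPase medians were 0.55 in WT and -0.02 in the mutant, and those of the type I list were -0.61 and -0.40. Of the markers other than Cxcl9, which the rule used, Ly6i had the largest gap, at 14.5 CPM (6.26-28.6) in WT and 51.7 (40.4-65.1) in mutant Folr2-positive cells, while Fcgr1 was as high there as in the Cxcl9-positive cells in WT, at 161 CPM (129.6-199), and higher in the mutant, at 215 (191-240.3).

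The share of Cxcl9-positive macrophages was higher in the mutant library by some counts and not separable by others. They made up 2.39% of kept WT cells (1.96-2.89) and 4.13% of kept mutant cells (3.63-4.68), a difference of 1.74 percentage points (1.05-2.43). Among macrophages the shares were 23.7% (19.8-28.0) and 39.1% (35.2-43.2), a difference of 15.4 points (9.73-20.8), while macrophages as a whole made up 10.1% and 10.6% of kept cells. Among macrophages of similar depth, with 10000 to 40000 UMIs, the shares were 27.1% and 41.8%, and after thinning 17.01% of WT and 28.7% of mutant macrophages held a Cxcl9 UMI. With the whole rule applied to thinned cells, the shares of kept cells were 1.09% and 1.52%, a difference of 0.42 points with an interval from -0.07 to 0.91. The Mmp12-high share was 31.3% of WT and 17.8% of mutant macrophages. The mutant share rested more on cells near the thresholds: 10 WT and 44 mutant members held only 3 to 5 C1q UMIs, 6 and 65 held 1 Csf1r UMI, and 15 WT and 100 mutant cells lay just outside with 1 or 2 C1q UMIs. When only cells with fewer than 3 stromal UMIs counted as members, their share of kept cells was 1.79% and 1.96%, a difference of 0.17 points with an interval from -0.38 to 0.70; among macrophages with fewer than 3 stromal UMIs it was 26.2% and 37.2%.

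**Figure D4:**
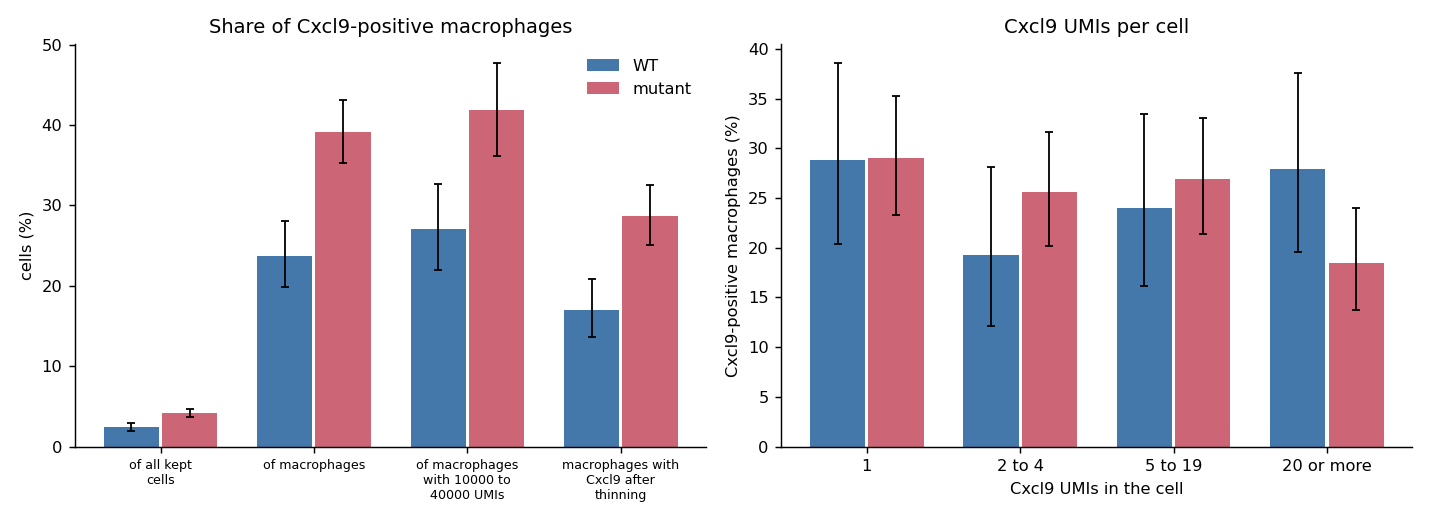
Left, share of cells (%) that were Cxcl9-positive macrophages among all kept cells, all macrophages and macrophages with 10000 to 40000 UMIs, and share of macrophages with a Cxcl9 UMI after thinning to 2000 UMIs, in WT (blue) and mutant (red); right, distribution of Cxcl9 UMIs among the Cxcl9-positive macrophages. Bars are shares with 95% binomial intervals; each mutant bar on the left is the higher, for example 39.1% against 23.7% of macrophages, and the largest gap on the right is at 20 or more UMIs.

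Cxcl9 RNA was not restricted to macrophages, which bears on the share just given. Cxcl9-positive macrophages held 17.1% of the Cxcl9 UMIs in kept WT cells and 22.6% of those in kept mutant cells. Cells with endothelial markers held 35.7% and 20.5%, and those with mesenchymal markers 23.3% and 23.1%. After thinning, a Cxcl9 UMI was found in 12.2% of WT and 15.3% of mutant endothelial cells and in 7.87% and 16.3% of cells with monocyte markers. Of cells that should lack the gene, B-lineage cells held one in 0.877% (1 of 114) and 4.23% (3 of 71) after thinning (median depths 4393 and 6144 UMIs), but in 2 of 119 and 0 of 71 when thinned to 1000 UMIs, and cells with erythroid markers in 2.06% and 18.3% (9079 and 2804 UMIs). The erythroid class of the mutant held 2629 cells against 374 in WT, including droplets of other cell types that carried haemoglobin RNA. The 28.7% of mutant macrophages is above that 18.3%, and the 17.01% of WT macrophages is above 2.06%, but the share in the erythroid class also differed between the libraries, and its part in the difference between macrophage shares was not tested.

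Gene levels within the Cxcl9-positive macrophages were compared between the libraries last. In the mutant 364 of 8841 genes were higher (4.12%) and 156 lower (1.76%) by the same fold, with 1 library a side. The GTPases were not higher in the mutant: 6 of 17 were above 0 and 1 was below -1, with a median of -0.12, and the summed list had a log2 ratio of -0.18 (-0.23 to -0.13). Gbp4 was the gene below -1, with a log2 ratio of -1.16 (-1.40 to -0.92). Cxcl10 had a ratio of 0.74 (0.58 to 0.90), while Ccl5 had -0.61 (-0.67 to -0.55) and Nos2 -0.26 (-0.38 to -0.13). Without cells of 3 or more stromal UMIs the ratio of Cxcl10 was 0.25 (0.06 to 0.44) and that of Ccl5 was -0.02 (-0.10 to 0.05), an interval that includes 0. Of the type I list, 28 of 38 genes were above 0, with a median of 0.29, but without cells of 3 or more stromal UMIs 11 of 34 were above 0 and the median was -0.23. None then passed 1 and 4 were below -1, and on thinned cells none passed 1 and 2 were below -1. With all cells, Rsad2 at 1.40 (1.16 to 1.64) and Cmpk2 at 1.69 (0.81 to 2.70), neighbours on the chromosome that are often induced together, were the 2 genes past 1. Without cells of 3 or more stromal UMIs the ratio of Rsad2 was 0.82 (0.53 to 1.12) and on thinned cells 0.99 (0.28 to 1.77), short of the fold, and Cmpk2 had too few UMIs to be measured in either setting. Ccl8, a monocyte chemokine, was at 125 CPM (111-142) in WT and 513 (492-535) in the mutant, and Gpnmb and Mrc1 had ratios of 2.19 and 1.48. On thinned cells the ratios were 1.23 for Ccl8, 1.31 for Gpnmb and 0.97 for Mrc1, the last short of the fold.

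The genes with the largest ratios between the libraries were in part those that also differed in other cells. Ifi202b (chr1:173962568-173982744), an interferon-inducible gene of the Ifi200 family with close copies, had 0 UMIs in the WT Cxcl9-positive macrophages and 196 CPM (183-209) in the mutant ones, and it was at 0 and 65.5 CPM in the kept cells that were not macrophages. Rpl29, a ribosomal protein gene with many processed copies in the genome, was at 674 CPM (639-711) in WT and 11.9 (8.89-15.6) in the mutant, and at 592 and 14.8 in cells that were not macrophages. Both genes thus differed in the same direction outside the macrophages. Bpifb1, a secreted gland protein, and Lipf, gastric lipase, were at 0 in WT Cxcl9-positive macrophages and at 155 (144-167) and 65.2 CPM (57.9-73.3) in the mutant ones; in cells that were not macrophages they reached 2933 and 1582 CPM in the mutant against 0.213 and 0 in WT. Tnfsf8, a ligand of the TNF family, was at 22.7 CPM in the mutant, but 95 of its 99 UMIs came from 1 cell. Cstdc5, a cystatin-like gene, was at 61 CPM in WT with 123 of 124 UMIs in 1 cell. Acta2, the actin of smooth muscle, was at 196 CPM (177-217) in WT and 20.8 (16.8-25.6) in the mutant, with 324 of its 399 WT UMIs in 1 cell, and without the highest doublet scores its log2 ratio turned to 1.65. Tagln, Tpm2 and Mustn1 of the same tissue likewise rested on 1 WT cell each, with 153 of 187, 68 of 94 and 89 of 101 UMIs, and without the highest doublet scores the smooth muscle list summed to 12.1 CPM in WT and 57.6 in the mutant.

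**Figure D5:**
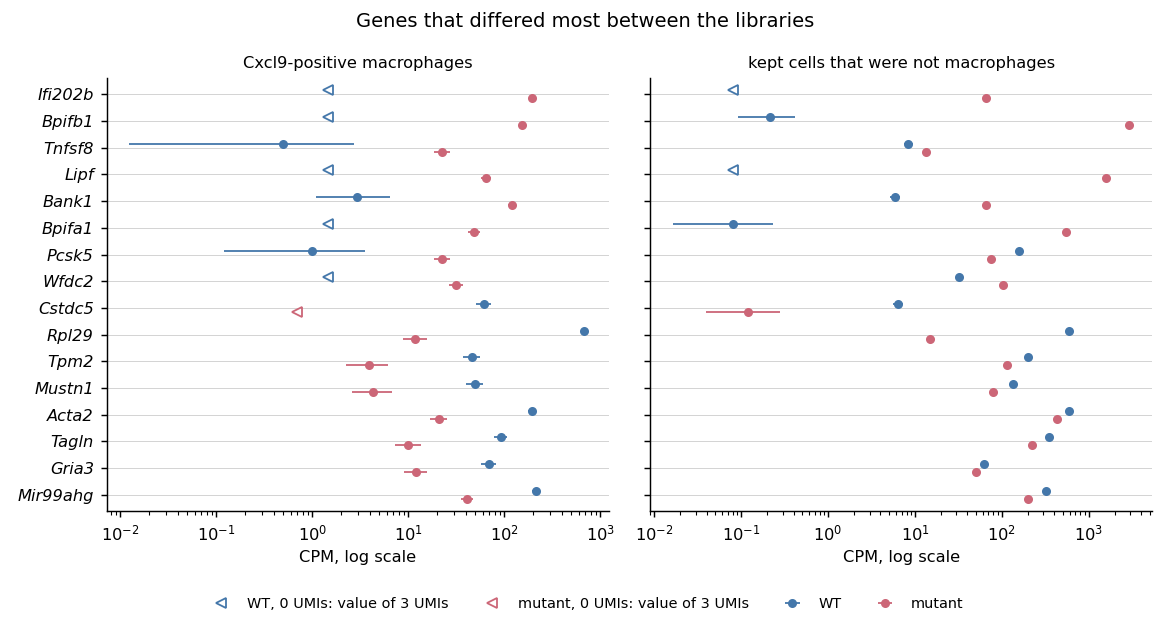
Level (CPM, log axis) of 16 genes, 8 from either end of the ranking by mutant over WT, in Cxcl9-positive macrophages (left) and in kept cells that were not macrophages (right), in WT (blue) and mutant (red), with 95% counting intervals; open triangles mark 0 UMIs and stand at the value of 3 UMIs. All plotted genes but Pcsk5 differ in the same direction in both panels, for example Rpl29 at 674 and 11.9 CPM on the left and 592 and 14.8 on the right.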

How the data were processed

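The values are raw UMI counts per gene and barcode, which the authors made with Cell Ranger 7.0.1 on mm10 (GRCm38) per the labels and deposited unnormalized for 5709 WT and 7846 mutant barcodes; whether doublets were removed is not given in the sources used here. Cells were filtered as in the study's methods. Members, gene lists and settings were chosen with earlier results of these data known. UMIs were summed per group and library and scaled to CPM. Intervals are exact Poisson for CPM, Clopper-Pearson for shares, Newcombe for differences of shares and conditional binomial for ratios; a gene at 0 UMIs in 1 group was set to a floor of 3 UMIs in that group. Ratios needed at least 50 UMIs over both groups. With 1 library per genotype no test was run. Named genes were those of the interferon, MHC and Fc receptor lists; of other lists the most abundant gene and those past the fold in both libraries; and the 15 highest and 10 lowest against Cxcl9-undetected macrophages and the 8 highest and 8 lowest between libraries. Others, such as Cd40, Il6, Gpnmb and Ccl8, were chosen after their values were seen, as was the ranking without stromal UMIs. Scrublet's automatic threshold called 1 and 0 barcodes, so the 239 and 462 highest scores were taken. The ratio code was tested only on simulated independent counts, without the clustering of UMIs in single cells seen here. That test therefore cannot show whether the intervals hold for clustered genes. Python 3.11.15, scanpy 1.11.5 and scipy 1.17.1 were used, with GENCODE M21 positions.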

Additional observations from a re-analysis of the deposited data

Results flagged for a closer look

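Barcodes outside the cell filter held a few further candidates. In WT 3 barcodes, and in the mutant 1 barcode, met the UMI conditions on C1q, Csf1r, Cxcl9, Folr2 and Mmp12 but not the filter; the WT ones had too high a mitochondrial share and the mutant one too few genes. They entered no comparison.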

How the results depend on the processing

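With 1 library per genotype, leaving out a replicate was not possible. No paired analysis was possible because each genotype had 1 library and no test was run. Intervals cover counting error only, and mice, litters and library preparation cannot be told apart from genotype. Main values were shares, counts of genes, summed GTPase ratios and Cxcl9 in other cells. Of these under alternatives, 72 moved by no more than their margin and 75 moved further. Of the other values, mostly ratios of single genes, 5695 moved by no more than their margin, 1434 moved further and 7 were classed as reversed. Changes of sign also occurred among values classed as moved further, as for the B-lineage difference given below, which is a main value. The cause was not tested. The settings on stromal UMIs and on 10000 to 40000 UMIs were chosen after seeing the data.

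The difference in share between mutant and WT was 3.14 percentage points with 1 C1q UMI required, 0.868 with 10, 0.635 with 5 Cxcl9 UMIs, 2.98 with a cell filter of 1000 genes and 5% mitochondrial UMIs, 3.89 without Csf1r, 0.422 on thinned cells and 0.171 under 3 stromal UMIs; of macrophages it was 15.4, or 14.7 at 10000 to 40000 UMIs and 10.997 under 3 stromal UMIs. For Cxcl9 in other cells, the difference was 14.2 points in mesenchymal cells classed without haemoglobin, S100a8 and S100a9, and -1.68 in B-lineage cells thinned to 1000 UMIs.

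Counts of genes are given as higher and lower in Cxcl9-positive cells. The number of genes measured changed with the setting, so the counts are not directly comparable. Against Cxcl9-undetected cells it was 10024 (WT) and 11233 (mutant) with at least 20 UMIs. It was 3921 and 5124 with at least 200 UMIs, and 2004 and 3016 on thinned cells. With at least 20 UMIs they were 644 and 233 (WT) and 466 and 195 (mutant) against Cxcl9-undetected, 857 and 723 and 820 and 604 against Folr2-positive cells, and 726 and 369 for mutant over WT, and 1756 and 1250 genes were higher than in Mmp12-high cells. With at least 200 UMIs they were 39 and 32 and 49 and 9 against Cxcl9-undetected, 162 and 135 and 146 and 104 against Folr2-positive, 367 and 225 and 233 and 164 against Mmp12-high cells, and 98 and 40 for mutant over WT. On thinned cells they were 29 and 30 and 35 and 11, 122 and 77 and 145 and 123, 183 and 121 and 142 and 110, and 101 and 63, in the same order. Centred on the median, 627 were higher and 580 lower than in WT Mmp12-high cells. Against Cxcl9-undetected cells, 119 (WT) and 141 (mutant) were higher at 10000 to 40000 UMIs, 85 and 90 under 3 stromal UMIs and 126 in WT without the highest Scrublet scores, and 152 were lower in WT with at least 2 Cxcl9 UMIs. Lower were 92 and 68 at 10000 to 40000 UMIs, 123 and 85 under 3 stromal UMIs, and 125 in WT without the highest Scrublet scores.

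The log2 ratio of the summed GTPases against Cxcl9-undetected cells (WT, mutant), then mutant over WT, was 1.38, 0.95 and -0.35 with at least 2 Cxcl9 UMIs, 1.39, 0.96 and -0.31 at 10000 to 40000 UMIs, 0.999, 0.96 and -0.27 on thinned cells, and 1.26, 1.04 and -0.36 under 3 stromal UMIs; without the highest Scrublet scores it was 1.20 in WT and -0.26 for mutant over WT. Between 20 or more and 1 Cxcl9 UMI it was 1.22 in the mutant on thinned cells.

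Without the highest Scrublet scores, Col3a1 had a log2 ratio of -0.24 over Cxcl9-undetected cells in WT, and mutant over WT was 0.37 for Ctsg, 4.44 for Slit3 and 1.65 for Acta2. Under 3 stromal UMIs, Mir99ahg was at -0.042 over Cxcl9-undetected cells in WT and Ctsg at 5.06 for mutant over WT. At 10000 to 40000 UMIs, Igfbp5 was at -0.19 for mutant over WT.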
